A study of Homo sapiens with 12 samples.

Results

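T98G and U251 are established human glioblastoma cell lines, and the comparison described here is between their control cells, the libraries labelled NC. All 6 NC libraries, 3 of T98G and 3 of U251, were taken from the 12 libraries of the series. They were chosen by their labels alone, and every gene of the count table was considered.

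The series measured polyadenylated RNA by strand-specific sequencing in cells over-expressing PEPD, labelled PEPD-OE, and in NC cells of both lines. PEPD encodes prolidase, a peptidase that releases proline from the end of dipeptides. The labels do not expand NC, give no vector or dose, and give no clone. T98G NC and U251 NC therefore differ by cell line, and the same label covers whatever control treatment both received. The 3 T98G PEPD-OE and 3 U251 PEPD-OE libraries share no library with the NC comparison and were used as further libraries of the same 2 lines. The labels do not say whether replicates were separate cultures, so each p-value rests on a spread between libraries that may be technical.

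Glioblastoma is the most common malignant tumour that starts in the brain of adults. Its cells can carry programs of astrocytes, of neural or oligodendrocyte progenitors, or of a mesenchymal kind in which collagens, matrix proteins and adhesion genes are active. Cell lines kept for a long time in culture retain parts of these programs to different degrees. The difference between their control cells is therefore the setting in which any treatment of them is read.

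Depth was 464056, 741436 and 763006 counts for T98G NC and 874156, 796407 and 840233 for U251 NC. A count of 3 equalled 3.60 to 6.26 CPM, the count scaled to a common library size. PEPD, the gene altered in the series, had 9, 2 and 9 counts in T98G NC and 11, 5 and 7 in U251 NC, against 100 to 118 in T98G PEPD-OE and 113 to 175 in U251 PEPD-OE. It was too low to be tested between the NC groups. One library stood apart: T98G NC replicate 2 held 241 counts of the alpha-globin gene HBA2, where the other NC libraries had 0 to 2. It also held 80 counts of S100A9, 44 of FCGR3B and 33 of LYZ (opposite AC020656.1), genes of neutrophils and other myeloid cells, against 0 or 1 elsewhere among the NC libraries. In all, 18 genes had at least 10 counts in this library and at most 2 in each of the other 5, together 0.0908% of its counts. The summed level of 18 markers of macrophages and microglia was 136 CPM there, against 2.55 to 16.7 CPM in the other 5, and none of these markers was tested. TMEM119, C1QA, C1QB and C1QC were at 0 in every NC library. T98G PEPD-OE replicate 2 carried the same genes, with 317 counts of HBA2, 51 of S100A9, 25 of FCGR3B and 27 of LYZ, where the other PEPD-OE libraries had 0 to 5, 0 to 8, 0 to 2 and 0 to 2. The part of blood cell RNA in the other results was not tested. The NC counts of called genes and of list members, and the calls of the named genes, were repeated without T98G NC replicate 2, and the counts of genes and of most lists that use PEPD-OE libraries were repeated without the T98G libraries numbered 2, as given below.

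Replicates of a line resembled each other more than they resembled the other line. Across tested genes, the correlation of log2(CPM + 1) ranged from 0.945 to 0.961 within T98G, from 0.960 to 0.963 within U251 and from 0.694 to 0.712 between the lines. These values describe genes within shared libraries and carry no test.

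Of 7653 genes tested, 4028 differed between the lines (52.6%) at an adjusted p under 0.05 by edgeR's quasi-likelihood test. Of these, 2022 were higher in T98G (26.4%) and 2006 were higher in U251 (26.2%). Both shares are the background for every list count below. At least a 2-fold difference was found for 1041 and 1070 of them, together 27.6% of the genes tested. The libraries of the lines did not overlap for 4415 genes (57.7%). All log2 differences below are T98G minus U251, so a negative value means a higher level in U251. At the extremes, 61 genes with at least 20 CPM in T98G had at most 3 counts over the 3 U251 libraries, 25 of them with none. In the other direction 67 genes had at least 20 CPM in U251 and at most 3 counts in T98G, 23 of them with none. Without T98G NC replicate 2, 3854 genes differed, 1906 higher in T98G and 1948 higher in U251.

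**Figure D1:**
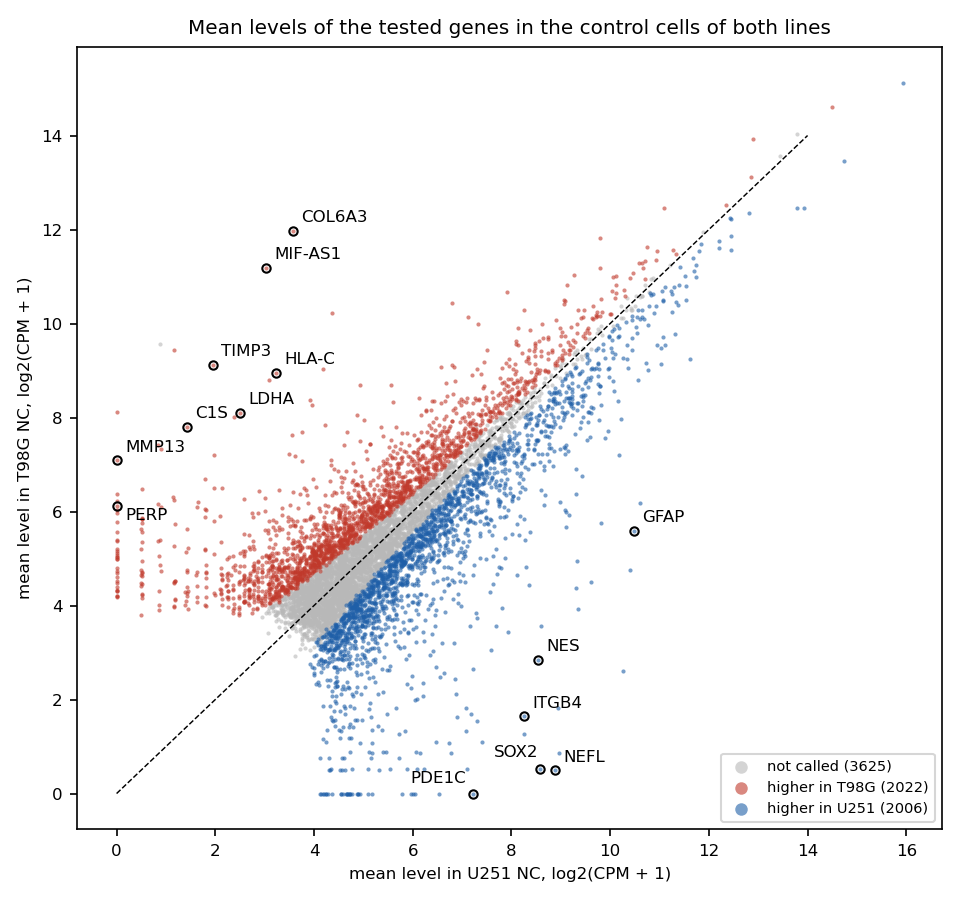
Mean level of each of the 7653 tested genes in U251 NC (horizontal axis) and T98G NC (vertical axis), both as log2(CPM + 1), with genes called higher in T98G in red, higher in U251 in blue and not called in grey. The dashed line marks equal levels, and the circled genes lie far from it: COL6A3 at 4021 CPM in T98G against 10.9 CPM in U251, and SOX2 at 0.427 CPM against 380 CPM.

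The strand of the counts limits what a gene name means. The library kit kept the strand, but 65.4% to 69.9% of the counts of each NC library stood under genes whose exons overlap an exon on the other strand. In 258 pairs of a noncoding gene lying inside the exons of a coding gene of the opposite strand, the noncoding name had more counts per kilobase in 208 (80.6%). Such a count can come from either partner, so each gene of this kind is given with its partner after the word opposite. Of 57 pairs with both names called, 54 differed in the same direction. The strand setting used for the counting is not given. Levels of genes without an overlap, such as COL6A3, LDHA and SOX2, also depend on that setting. Whether it matched the library kit was not tested. Among the 3493 tested genes without such an overlap, 984 were higher in T98G (28.2%) and 739 in U251 (21.2%). When such genes were filtered, scaled and fitted alone, 850 were higher in T98G and 845 in U251.

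The strongest T98G signal lay in a collagen. COL6A3, which encodes a chain of the microfibril-forming type VI collagen (GRCh38, chromosome 2, 237324003 to 237414375), stood at 4226, 3953 and 3884 CPM in the T98G libraries and at 10.8, 11.5 and 10.2 CPM in U251. Every T98G library lay far above every U251 library, with a log2 difference of 8.51 (SE 0.12, adjusted p = 3.12e-92). MMP13, a collagenase, stood at 142, 131 and 134 CPM in T98G and had no count in U251, which puts it at least 107-fold higher in T98G (adjusted p = 3.58e-35; bound set by 3 counts over the group). TIMP3, a matrix-bound inhibitor of such proteases, was read at 512, 580.5 and 577 CPM against 4.80, 2.57 and 1.28 CPM, a log2 difference of 7.50 (SE 0.21, adjusted p = 1.66e-59). Protease and inhibitor were thus both near 0 in U251 and read in every T98G library.

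MIF-AS1, opposite MIF, stood at 2476, 2419 and 2113 CPM in T98G and 4.80, 2.57 and 14 CPM in U251, a log2 difference of 8.33 (SE 0.15, adjusted p = 8.87e-58). MIF itself, a cytokine, had 35, 60 and 60 counts against 1, 1 and 1, a ratio of summed and scaled counts, higher line over lower, of 59.9 (95% counting interval 20.1 to 294), so both names of the locus were nearly empty in U251. The same held for LDHA, the lactate dehydrogenase subunit that converts pyruvate to lactate. Its level was 284, 264 and 276 CPM in T98G and 1.20, 6.42 and 6.38 CPM in U251, with a log2 difference of 5.85 (SE 0.23, adjusted p = 5.26e-46). LDHB, the other main subunit, was 1.92-fold higher in T98G, at 139 ± 2.90 CPM against 72.3 ± 16 CPM (SD, n = 3). The counts of LDHA were also low in the U251 PEPD-OE libraries, at 8, 0 and 12 against 159 to 206 in T98G PEPD-OE, and those of MIF-AS1 were 2, 1 and 4 against 1757 to 2038.

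HLA-C, a class I molecule that presents peptides to T cells, was read at 503, 495 and 484 CPM in T98G and 8.39, 8.98 and 7.66 CPM in U251, with a log2 difference of 5.86 (SE 0.18, adjusted p = 8.52e-56). Class I genes are close copies of each other and vary between people, so the split of reads between them is uncertain. HLA-B (opposite AL671883.2) also stood higher in T98G, with a log2 difference of 1.58, while HLA-E was higher in U251, at -0.93. The complement proteases C1S and C1R were higher in T98G, with log2 differences of 6.93 and 5.27. C1S stood at 219, 243 and 206 CPM against 1.20, 1.28 and 2.55 CPM, with no overlap between the lines. Over the whole list of class I antigen presentation genes, 3 of 17 tested members were higher in T98G and 8 in U251, with a median of -0.34. Among members without opposite-strand overlap the counts were 2 and 2 of 6. One of those higher in U251 was NLRC5, an activator of class I transcription (-1.31).

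Other genes at or near 0 in U251 were PERP, a membrane protein of cell junctions (at least 55.3-fold higher in T98G), the cadherin-family gene PCDH18 (at least 50.2-fold), G0S2, an inhibitor of fat breakdown (at least 37.5-fold), and the developmental transcription factor SOX11 (at least 21.6-fold). The receptor PDGFRB had 98 counts over T98G and 1 over U251, a ratio of 114 (95% counting interval 19.9 to 4533). TNFRSF11B, the decoy receptor osteoprotegerin, had a ratio of 202 (95% counting interval 55.4 to 1673), and PLIN2, which coats lipid droplets, of 133 (95% counting interval 23.5 to 5312). The aryl hydrocarbon receptor AHR (opposite AC073332.1) was at least 28.2-fold higher in T98G. CTSS, a lysosomal protease of myeloid cells, had 9, 40 and 20 counts in T98G and none in U251. Its highest value fell in T98G NC replicate 2, the library with blood cell genes. Without that library its adjusted p was 5.12e-11.

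SOX2, a transcription factor that maintains neural stem cells (chromosome 3, 181711924 to 181714436), stood at 425, 348 and 366 CPM in U251 and had a single count in T98G, a ratio of 787 (95% counting interval 141 to 31101). NES, the intermediate filament nestin of neural progenitors, was read at 337, 371 and 399.7 CPM against 2.09, 11.5 and 4.95 CPM in T98G, a log2 difference of -5.73 (SE 0.21, adjusted p = 3.06e-48). POU3F2, a neural transcription factor, was at least 42-fold higher in U251. All U251 libraries lay above all T98G libraries for these 3 genes.

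GFAP, the filament protein that marks astrocytes (opposite CCDC103), stood at 1371, 1526 and 1397 CPM in U251 and 37.6, 52.5 and 52 CPM in T98G. Both lines therefore carried GFAP counts, and the log2 difference was -4.87 (SE 0.11, adjusted p = 4.69e-69). NEFL, the neurofilament light chain (opposite AC107373.2), had 1137 counts over U251 and 1 over T98G. CAPS, encoding calcyphosine (opposite AC104532.2), stood at 484, 511 and 502 CPM against 0, 0 and 2.48 CPM.

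PDE1C, a phosphodiesterase that degrades cyclic nucleotides, was read at 152, 142 and 147 CPM in U251 and had no count in T98G, so it was at least 101-fold higher in U251 (adjusted p = 1.85e-35). SPP1, the secreted phosphoprotein osteopontin, was at least 63-fold higher in U251, the ephrin receptor EPHA3 at least 43.7-fold, and IL13RA2, the decoy receptor for interleukin 13, at least 37.1-fold. The semaphorin receptor PLXNA4 had a ratio of 173 (95% counting interval 47.7 to 1436). ITGB4, the integrin of hemidesmosomes, stood at 320.2, 287 and 303 CPM against 0, 5.13 and 1.24 CPM, a log2 difference of -6.87 (SE 0.26, adjusted p = 4.85e-47). CKB, the brain creatine kinase, had 282 counts in U251 and 3 in T98G, all of the latter in replicate 1.

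**Figure D2:**
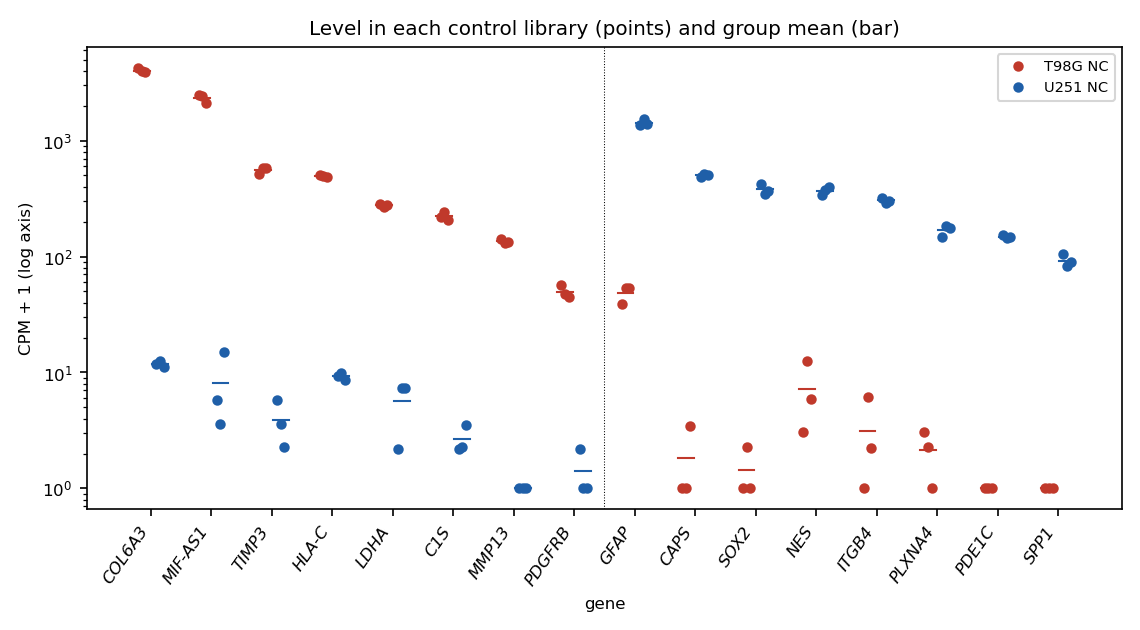
Level of 16 genes in each NC library, as CPM + 1 on a log axis, with T98G in red and U251 in blue, points for libraries and bars for group means. The 8 genes on the left were higher in T98G and the 8 on the right higher in U251, and in none of the 16 do the libraries of the lines overlap.

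The start regions of SOX2 and PDE1C are shown because both genes were read in every U251 library and had 1 and 0 counts in T98G, yet differ in base composition. Each is the 250 bases before the RefSeq start (GRCh38.p14), read 5′ to 3′ on the strand of the gene, with every CG dinucleotide, the unit of DNA methylation, in capitals. The region of SOX2 is chr3:181711675-181711924 on the plus strand and that of PDE1C is chr7:32299329-32299578 on the minus strand.
SOX2: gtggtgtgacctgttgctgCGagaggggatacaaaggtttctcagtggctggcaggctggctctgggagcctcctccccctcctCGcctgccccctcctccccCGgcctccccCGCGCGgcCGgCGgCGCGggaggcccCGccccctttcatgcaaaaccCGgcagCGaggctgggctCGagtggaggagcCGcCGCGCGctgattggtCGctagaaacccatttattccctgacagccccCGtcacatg
PDE1C: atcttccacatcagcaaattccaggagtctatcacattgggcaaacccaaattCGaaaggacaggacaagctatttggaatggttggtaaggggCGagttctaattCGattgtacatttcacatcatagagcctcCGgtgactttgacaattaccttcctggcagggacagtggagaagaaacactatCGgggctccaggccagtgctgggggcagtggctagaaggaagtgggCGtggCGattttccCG

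SOX2 held 20 CG dinucleotides in these bases and PDE1C 8. Among tested protein-coding genes, 5430 of 6536 had such a region (83.1%), with a median of 22 CG (quartiles 15 and 29). A share of 99.3% held at least one CG and 4.68% held 3 or fewer. CG reads the same on both strands, and methylation was not measured here.

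**Figure D3:**
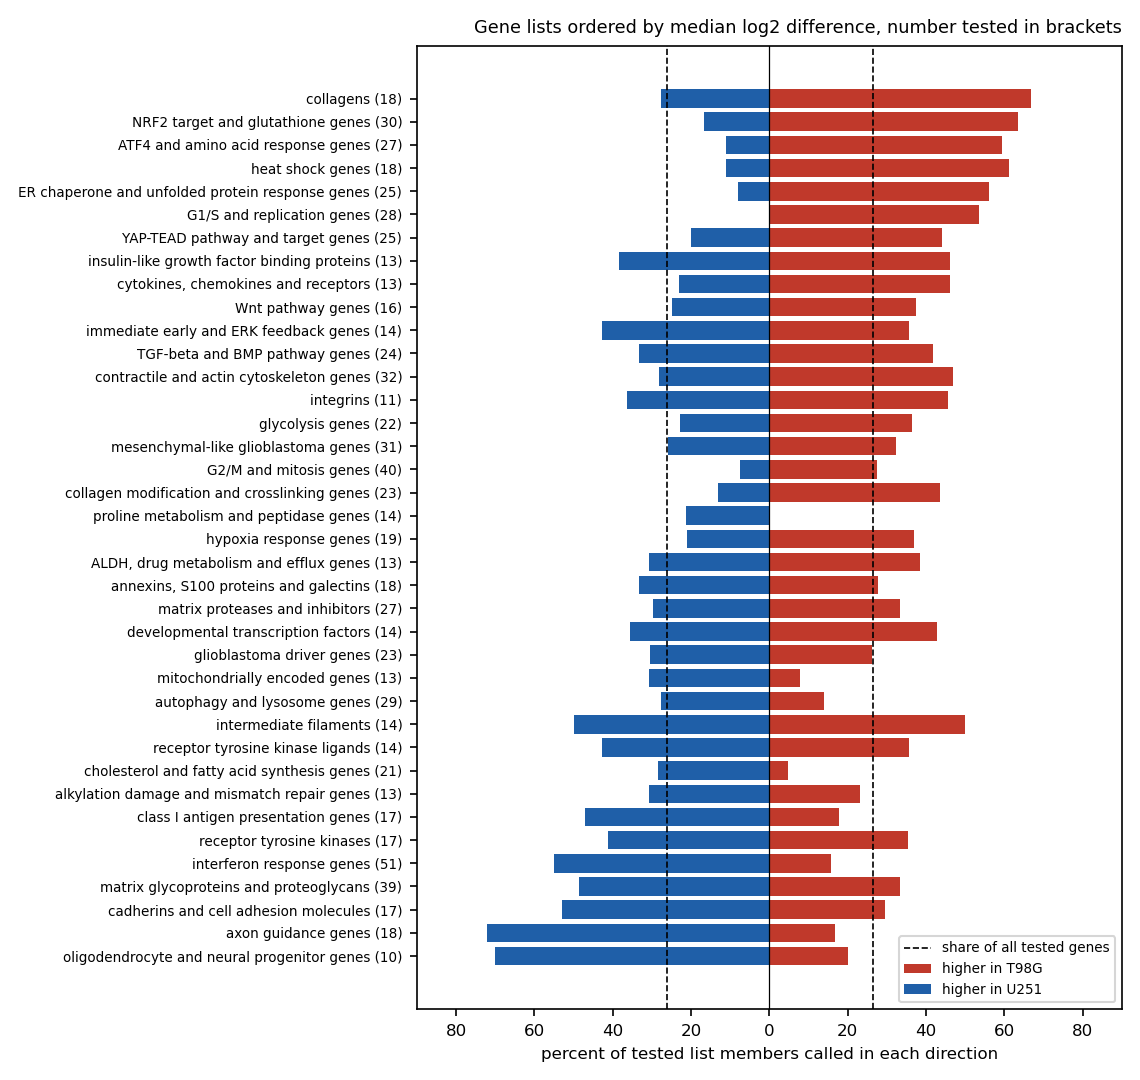
For gene lists with at least 10 tested members (number in brackets), the percent of members called higher in T98G (red, to the right) and in U251 (blue, to the left), ordered by median log2 difference. A qualifying list not reported here is left out. The dashed lines give the shares over all tested genes, 26.4% and 26.2%. The longest bar toward U251 is that of axon guidance genes (13 of 18) and the longest toward T98G that of collagens (12 of 18).

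Markers of glia and neural progenitors were more often higher in U251 than in T98G. Of 9 tested markers of astrocytes and radial glia, 5 were higher in U251 and 2 in T98G, with a median log2 difference of -1.53, where the median over all genes was -0.0035. Among the 8 members without opposite-strand overlap, 4 were higher in U251 and 2 in T98G, with a median of -0.87. Beside GFAP and NES, the glutamate transporter SLC1A3 (-2.51), the Notch effector HES1 (-2.02) and the BMP target ID3 (-1.53) were higher in U251. The glutamine synthetase gene GLUL (0.69) and the protease inhibitor CST3 (0.63) were higher in T98G, and both calls were lost with DESeq2, without T98G NC replicate 2 and without U251 NC replicate 2. Without T98G NC replicate 3 or U251 NC replicate 3, 1 of them remained. AQP4 and ALDH1L1 (opposite ALDH1L1-AS1) had no count in either line and S100B had 1. The astrocyte markers were therefore present only in part in both lines.

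Of 10 tested progenitor genes, 7 were higher in U251 and 2 in T98G. SOX4 (opposite AL512380.2) differed by -3.08, the microtubule proteins MAP2 and STMN1 by -2.03 and -0.93, and the receptor PDGFRA by -3.76. OLIG2 and OLIG1 (opposite AP000282.1) had no count in either line. Leaving out T98G NC replicate 2 or 3, or U251 NC replicate 1 or 3, left 1 progenitor gene higher in T98G. In Notch and Hedgehog signalling, 5 of 7 tested members were higher in U251 and 0 in T98G, among them GLI3 (-1.85), a Hedgehog effector, and the ligand JAG1 (opposite AL050403.2, -1.16). The HOX genes, which set position along the body axis, showed 3 of 6 tested members higher in U251 and 0 in T98G. HOXB3 (opposite HOXB-AS1) stood at 127, 114 and 109 CPM in U251 against 6.26, 1.28 and 2.48 CPM in T98G. HOXB7 had 83 counts in U251 and 1 in T98G. Without a filter on low counts, 9 HOX genes were higher in U251 and 1 in T98G, and 5 were higher in U251 without any one of the T98G libraries or U251 NC replicate 2. In bulk RNA, fewer cells of a type and less RNA per cell cannot be told apart.

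Axon guidance genes, which encode the cues and receptors that steer growing neurites, were also mostly higher in U251: 13 of 18 tested members, with 3 higher in T98G and a median of -1.06. The neuropilin NRP2 (opposite AC007362.1) stood at 221, 208 and 190.3 CPM in U251 against 8.35, 11.5 and 12.4 CPM in T98G. EFNB2 (opposite AL138689.2), an ephrin ligand, differed by -4.15 and SEMA3B by -2.04. In the other direction, PLXNA1 (1.49) and NEO1 (1.69), a netrin receptor, were higher in T98G.

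Collagens were the list with the highest median, 1.37, with 12 of 18 tested members higher in T98G and 5 higher in U251. Beside COL6A3, the other chains of type VI collagen, COL6A1 and COL6A2, differed by 1.08 and 1.48. Thus COL6A3 was 365-fold higher in T98G where its partners were 2.11-fold and 2.79-fold higher. COL7A1, which forms the anchoring fibrils of skin, stood at 514, 497 and 561 CPM against 15.6, 14.1 and 21.7 CPM, and COL5A1, a fibril-forming chain, differed by 2.33. The basement membrane chains COL4A1 and COL4A2 (opposite COL4A2-AS1) differed by 1.55 and 1.25. The members higher in U251 included chains of cartilage collagens: COL11A1 had a ratio of 121 (95% counting interval 21.3 to 4803), COL9A3 (opposite TCFL5) of 69 (95% counting interval 18.8 to 575), and COL9A2 was at least 15.2-fold higher in U251. COL1A2 was also higher in U251 (-1.19). The wider list of mesenchymal-like glioblastoma genes was split, with 10 of 31 tested members higher in T98G and 8 in U251, and a median of 0.18.

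Collagen processing followed in part. Of 23 tested genes for collagen modification and crosslinking, 10 were higher in T98G and 3 in U251, with a median of 0.10. The collagen chaperone SERPINH1 (2.27), the crosslinking oxidases LOXL2 (opposite AC090197.1, 1.70) and LOX (opposite SRFBP1, 1.04) and the procollagen processing enhancer PCOLCE (opposite PCOLCE-AS1, 2.83) were higher in T98G.

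Matrix glycoproteins and proteoglycans were split, with 13 higher in T98G and 19 in U251 of 39 tested. Fibronectin, FN1, stood at 532, 492 and 596 CPM in T98G against 95.9, 123 and 121 CPM in U251, and thrombospondin THBS1 (opposite FSIP1) differed by 2.04. Tenascin C, TNC (opposite DEC1), was higher in U251, at 277, 326 and 318 CPM against 27.1, 46.1 and 49.5 CPM, as was the proteoglycan GPC4, with a ratio of 44.4 (95% counting interval 12 to 372). SPARC (opposite CLMAT3) was 1.67-fold higher in U251.

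Among matrix proteases and their inhibitors, 9 of 27 were higher in T98G and 8 in U251. The collagenase MMP1 (opposite WTAPP1) had 121 counts in T98G and 1 in U251, and the gelatinase MMP2 differed by 2.76. SERPINE2, an inhibitor of serine proteases, was higher in T98G (1.69). TIMP1 did not pass the test, at 19.8 ± 2.75 CPM in T98G and 27.4 ± 7.79 CPM in U251 (SD, n = 3, adjusted p = 0.234).

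The integrins, receptors for these matrix proteins, were likewise split, 5 of 11 higher in T98G and 4 in U251. ITGA6 (opposite AC078883.2), the partner of ITGB4 in hemidesmosomes, was 7.19-fold higher in T98G although ITGB4 was 117-fold higher in U251. ITGA2 (1.51), a collagen receptor, was higher in T98G. ITGA3, a laminin receptor, was higher in U251, at 887, 873 and 881 CPM against 242, 255 and 237 CPM, and ITGA7 (opposite METTL7B) differed by -5.46. Of 17 tested cadherins and cell adhesion molecules, 9 were higher in U251 and 5 in T98G. N-cadherin, CDH2 (opposite AC110015.1), and the neuronal adhesion molecule NRCAM were higher in U251 (-1.31 and -3.54). CDH11 and L1CAM (opposite LCA10) were higher in T98G (0.99 and 3.41).

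Receptor tyrosine kinases differed by member and not as a group: 6 of 17 were higher in T98G and 7 in U251, with a median of -0.44. EGFR (opposite EGFR-AS1), the receptor most often amplified in glioblastoma, stood at 85.6, 91 and 104 CPM in T98G against 28.8, 32.1 and 25.5 CPM in U251. The PDGF receptors ran in opposite directions, PDGFRB higher in T98G and PDGFRA higher in U251, where PDGFRA stood at 33.6, 21.8 and 29.4 CPM against 2.09, 1.28 and 2.48 CPM. The ephrin receptor EPHA2 was 4.01-fold higher in U251 and EPHB2 (opposite MIR4253) 6.08-fold higher in T98G. DDR2, a collagen receptor, was 2.84-fold higher in T98G and IGF1R 2.68-fold higher in U251.

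Of 14 tested ligands of these receptors, 5 were higher in T98G and 6 in U251. Among the 9 ligands without opposite-strand overlap the counts were 4 and 2. Neuregulin NRG1 differed by 3.13 and ANGPT1 by 2.55. Pleiotrophin, PTN, stood at 294, 219 and 219.6 CPM in U251 against 10.4, 14.1 and 4.95 CPM in T98G, and TGFA, a ligand of EGFR, and VEGFA (opposite AL136131.3) differed by -2.90 and -1.23. Binding proteins of insulin-like growth factors were split 6 against 5 of 13. IGFBP5 (opposite AC007563.2) stood at 1353, 1303 and 1507 CPM in T98G against 121, 108 and 101 CPM in U251 and IGFBP3 differed by 5.56, whereas IGFBP2 (-2.40) and IGFBP7 (opposite POLR2B, -2.80) were higher in U251. Without T98G NC replicate 3 or U251 NC replicate 3, 3 members were higher in U251.

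In other signalling lists, T98G had the higher levels of WNT5A (81.4, 65.4 and 85.5 CPM against 8.39, 5.13 and 7.66 CPM) and WNT5B (2.17), ligands of noncanonical Wnt signalling. DKK1 (opposite PRKG1-AS1), a Wnt antagonist, was 6.52-fold higher in U251. Of 16 tested Wnt genes, 6 were higher in T98G and 4 in U251. In the TGF-beta and BMP list, 10 of 24 were higher in T98G and 8 in U251. BMP7 was at least 13.5-fold higher in T98G and TGFB2 differed by 1.86, while the BMP target ID1 was higher in U251 (-1.87). YAP1 (opposite AP000942.2), the transcriptional coactivator of the Hippo pathway, was 3.06-fold higher in T98G. Of 25 tested genes of that pathway, 11 were higher in T98G and 5 in U251. Its targets CCN1 and CCN2 (opposite AL133346.1) went in opposite directions, at 0.52 and -1.10.

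Interferon response genes were mostly higher in U251, 28 of 51 tested, against 8 higher in T98G, with a median of -0.49. Among members without opposite-strand overlap the counts were 20 and 6 of 36. IFI6 stood at 783, 811 and 732 CPM in U251 and 154, 222 and 194 CPM in T98G, with every U251 library above every T98G library (adjusted p = 2.79e-37). IFI27 (-2.35), the ubiquitin-like modifier ISG15 (opposite AL645608.3, -2.32) and the membrane tether BST2 (-1.64) were also higher in U251. IRF7, a transcription factor that drives type I interferon genes, went the other way, with 55 counts in T98G against 1 in U251, as did EPSTI1, with 63 against 1. MX1 (opposite AP001610.1) did not pass the test, at 269 ± 50.7 CPM and 314 ± 5.24 CPM (SD, n = 3, adjusted p = 0.103). B2M, the light chain of class I molecules, was at 102, 288 and 115 CPM in T98G and 221, 217 and 225 CPM in U251 and did not pass the test (adjusted p = 0.588). Its highest T98G value was again in replicate 2, and the other two T98G libraries lay below all U251 libraries.

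Genes regulated by NRF2, the transcription factor of the response to oxidants, were mostly higher in T98G: 19 of 30 tested, against 5 higher in U251, with a median of 1.02. SRXN1, which repairs oxidised peroxiredoxins, stood at 56.4, 71.8 and 64.4 CPM against 2.40, 3.85 and 1.28 CPM. The reductases AKR1C2 and AKR1B10 differed by 4.85 and 2.64, with AKR1C1 and AKR1C2 near-identical copies whose reads may be split uncertainly. TXNRD1, a thioredoxin reductase, differed by 1.75, GCLC (opposite AL033397.2), the rate-limiting enzyme of glutathione synthesis, by 1.92, and NQO1 (opposite AC092115.2) by 1.07. The members higher in U251 included TKT (-1.50), an enzyme of the pentose phosphate pathway, and GPX4 (-0.90), which reduces lipid peroxides.

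Amino acid response genes, targets of ATF4, were higher in T98G for 16 of 27 tested members and in U251 for 3, with a median of 0.91. Stanniocalcin STC2 stood at 347, 322 and 326 CPM against 16.8, 10.3 and 15.3 CPM, the amino acid transporter SLC7A5 (opposite AC126696.2) differed by 3.22 and the serine synthesis enzyme PSAT1 by 2.03. Heat shock genes were higher in T98G for 11 of 18 and in U251 for 2. HSPA8, the constitutive cytosolic chaperone, differed by 1.54, and HSPB1 was higher in U251 (-1.03). One member was higher in U251 without T98G NC replicate 1 or 2 or U251 NC replicate 2 or 3. Of 25 tested genes of endoplasmic reticulum folding, 14 were higher in T98G and 2 in U251, HSPA5 among the former (0.96) and CALR (opposite AC092069.1, -0.59) among the latter. Without T98G NC replicate 2, and with DESeq2, 8 members of that list were higher in T98G, and without T98G NC replicate 1 or 3 one was higher in U251. Proline metabolism, the pathway PEPD feeds, had 3 of 14 tested members higher in U251 and 0 in T98G. Among those in U251 was the prolyl peptidase PREP (opposite AL133406.2, -0.87), whose call was lost with DESeq2. Without T98G NC replicate 3 or U251 NC replicate 2, 1 member was higher in U251, and without T98G NC replicate 2, 1 was higher in T98G.

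Genes of the G1 to S transition and of DNA replication moved one way. Of 28 tested, 15 were higher in T98G and 0 in U251, with a median of 0.62. Without T98G NC replicate 2 the counts were 12 and 1. The sliding clamp PCNA stood at 39.7, 42.3 and 37.2 CPM against 13.2, 8.98 and 11.5 CPM, the helicase subunits MCM4 and MCM6 differed by 1.59 and 1.56 and CDC45 by 1.98. Of genes of G2 and mitosis, 11 of 40 were higher in T98G and 3 in U251, the latter 1 without T98G NC replicate 1 or 2. The T98G count was near the share of all tested genes, 26.4%, while 26.2% of all were higher in U251. The proliferation marker MKI67 did not pass the test, at 319 ± 11.1 CPM in T98G and 288 ± 31.9 CPM in U251 (SD, n = 3, adjusted p = 0.233).

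Among 23 tested driver genes of glioblastoma, 6 were higher in T98G and 7 in U251, near the shares of all tested genes (26.4% and 26.2%). MYC stood at 56.4, 55.1 and 53.3 CPM in T98G against 8.39, 11.5 and 10.2 CPM in U251, and cyclin D1, CCND1 (opposite LTO1), at 232, 249 and 315 CPM against 79.1, 71.9 and 61.3 CPM. PIK3CA (opposite KCNMB3) was 3.69-fold higher in U251. CDKN1A (opposite DINOL), an inhibitor of cyclin-dependent kinases, was 4.66-fold higher in U251. RB1 did not pass the test, at 15.6 ± 4.77 CPM and 17.1 ± 5.81 CPM (SD, n = 3, adjusted p = 0.903).

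Several genes often examined in glioblastoma were too low to enter the fit. CDKN2B, a cell cycle inhibitor on chromosome 9p21, had 13, 16 and 6 counts in T98G and none in U251, and its neighbour CDKN2A (opposite CDKN2B-AS1) 0, 1 and 4 against none. MTAP (opposite AL359922.2), next to them, was tested and had 22, 32 and 51 counts in T98G and 51, 50 and 48 in U251 (adjusted p = 0.222). MGMT (opposite AL157832.2), which removes alkyl groups from guanine and protects cells from temozolomide, had 1, 2 and 2 counts in T98G and none in U251. TERT, the catalytic subunit of telomerase, had 0, 2 and 1 counts against 0, 1 and 0. At this depth a difference in MGMT or TERT was not detectable.

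The PEPD-OE libraries gave the line difference a second time, in other libraries and under another treatment. Between T98G PEPD-OE and U251 PEPD-OE, 4177 of 7627 tested genes differed (54.8%). Of the 4028 genes called between the NC groups, 3722 were tested there. The same direction was called for 2092, which is 51.9% of the NC calls and 50.1% of the PEPD-OE calls. The opposite direction was called for 356 (8.84%) and no direction for 1274. Without the 2 T98G libraries with blood cell RNA, a repeat chosen after seeing the data, 3854 genes were called in NC and 4085 in PEPD-OE, 1976 in the same direction and 274 in the opposite one. Genes with the greatest differences kept their direction: 187 differed at least 16-fold between the NC groups, 91 higher in T98G and 96 in U251, and all 160 of them that were tested in the PEPD-OE libraries were called there in the same direction. For genes at 0 in a line, the fold behind this count is the bound.

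The line difference itself differed between NC and PEPD-OE for 2428 of 8773 genes (27.7%), by the test of that difference over all 12 libraries, and for 2030 without those 2 libraries. Lists that separated the lines in NC cells fell into different kinds. Over all genes tested between the PEPD-OE groups, 2096 of 7627 were higher in T98G and 2081 in U251, the background for these counts. Collagens had 12 of 18 tested members higher in T98G and 4 in U251 in the PEPD-OE libraries, against 12 and 5 in NC. Oligodendrocyte and neural progenitor genes had 2 and 7 of 10 tested in both. Axon guidance genes had 4 higher in T98G and 9 in U251 of 18 tested, against 3 and 13 in NC. NRF2 genes had 27 of 32 tested higher in T98G and 0 in U251, against 19 and 5. G1/S genes had 0 of 25 tested higher in T98G and 8 in U251, where NC cells had shown 15 and 0. None of the 15 was called in the same direction: 2 were called in the opposite one, 10 were not called and 3 were not tested. ATF4 genes had 5 and 16 of 29 tested, against 16 and 3. Interferon response genes had 2 of 48 tested higher in T98G and 45 in U251, against 8 and 28. Heat shock genes had 3 and 6 of 18 tested, against 11 and 2. Endoplasmic reticulum folding genes had 3 and 3 of 21, against 14 and 2. YAP-TEAD pathway and target genes had 10 and 11 of 25, against 11 and 5. The U251 counts of G1/S and heat shock genes were near the share of all tested genes. Several lists with more members higher in T98G in NC cells therefore did not have that direction in PEPD-OE cells. Without T98G PEPD-OE replicate 2 the PEPD-OE counts were the same for progenitor, axon guidance and interferon response genes. They were 12 and 6 for collagens, 26 and 0 for NRF2 genes, 0 and 7 for G1/S genes and 5 and 14 for ATF4 genes. For heat shock genes they were 3 and 5, for endoplasmic reticulum folding genes 5 and 4 and for YAP-TEAD genes 11 and 11.

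**Figure D4:**
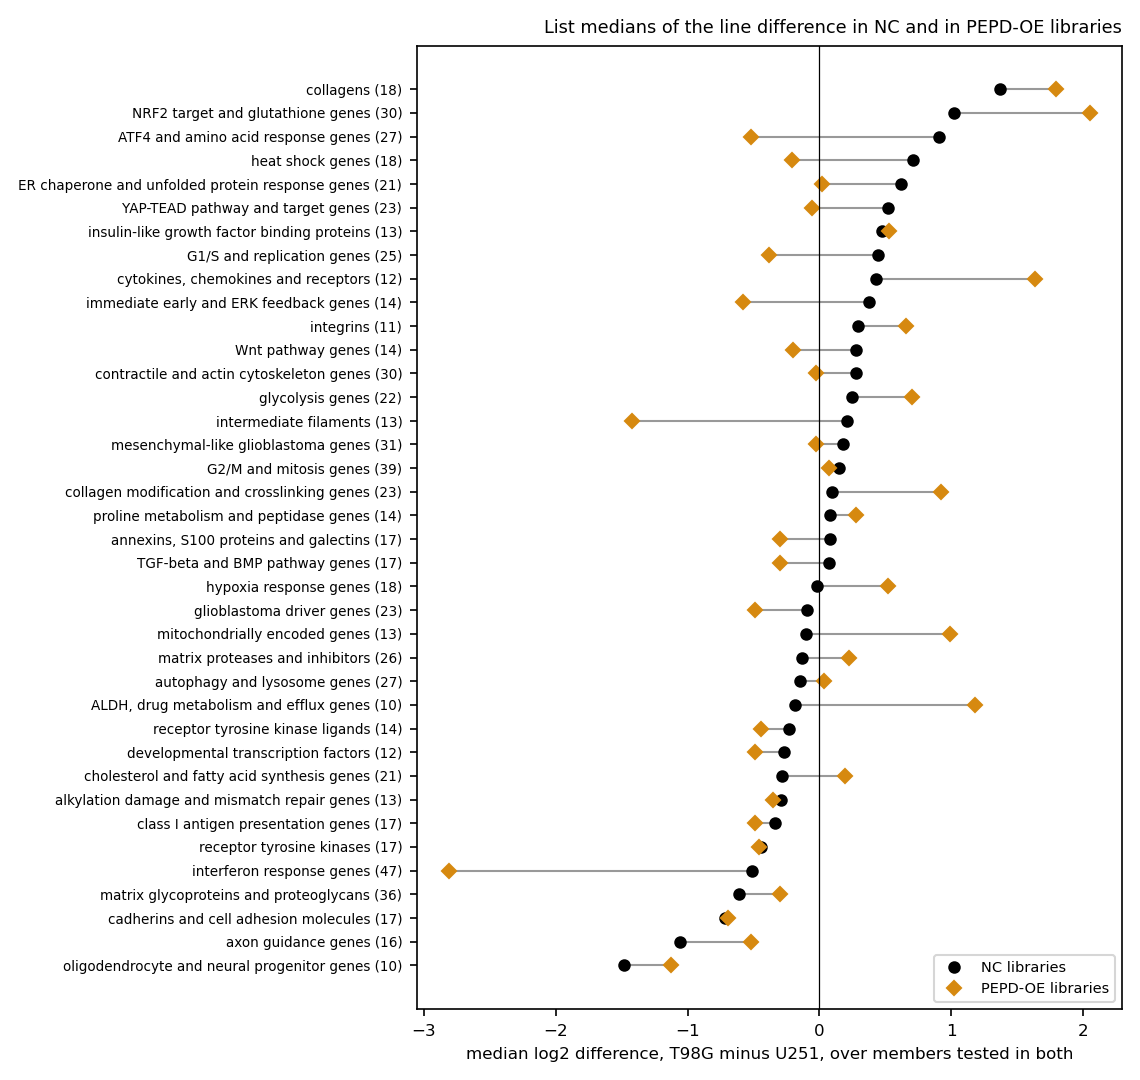
Median log2 difference T98G minus U251 of gene lists in the NC libraries (black circles) and in the PEPD-OE libraries (orange diamonds), over the members tested in both (number in brackets, at least 10). A qualifying list not reported here is left out. The pair of symbols stays on one side of 0 for collagens and NRF2 genes and crosses it, among others, for ATF4 genes (0.91 to -0.52), heat shock genes (0.71 to -0.21), YAP-TEAD genes (0.52 to -0.06), G1/S genes (0.44 to -0.38), immediate early genes (0.38 to -0.58) and intermediate filaments (0.21 to -1.42).

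Single genes differed in the same way. The log2 difference of STC2 was 4.53 in NC and 0.54 in PEPD-OE cells (adjusted p of the difference 1.52e-23), and that of SLC7A5 (opposite AC126696.2) was 3.22 and -0.22 (1.84e-25). EGFR (opposite EGFR-AS1) differed by 1.71 and 0.03 (1.28e-06), and THBS1 (opposite FSIP1) by 2.04 and -1.32 (1.08e-46). COL7A1, by contrast, differed by 4.93 and 4.66, MMP2 by 2.76 and 3.24, ITGA3 by -1.84 and -1.91 and PTN by -4.63 and -5.06. For these last 4 genes the difference between the treatments did not pass the test, with adjusted p-values of 0.63, 0.0963, 0.758 and 0.572.

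The differences were not spread evenly over the genome. Among tested protein-coding genes without opposite-strand overlap, the median log2 difference was highest on chromosomes 21 (0.82), 18 (0.82), 8 (0.79), 22 (0.73) and 20 (0.68). It was lowest on chromosomes 19 (-0.41), 6 (-0.37) and 4 (-0.30). On chromosome 21, 21 of 34 tested genes were higher in T98G and 0 in U251, and on chromosome 19, 19 of 224 were higher in T98G and 89 in U251. Over all tested genes without such overlap, of any type, 28.2% were higher in T98G and 21.2% in U251. Fitted alone, such genes gave 850 and 845 calls, so the excess in T98G depended on the fit. These counts carry no test, since neighbouring genes are not independent.

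**Figure D5:**
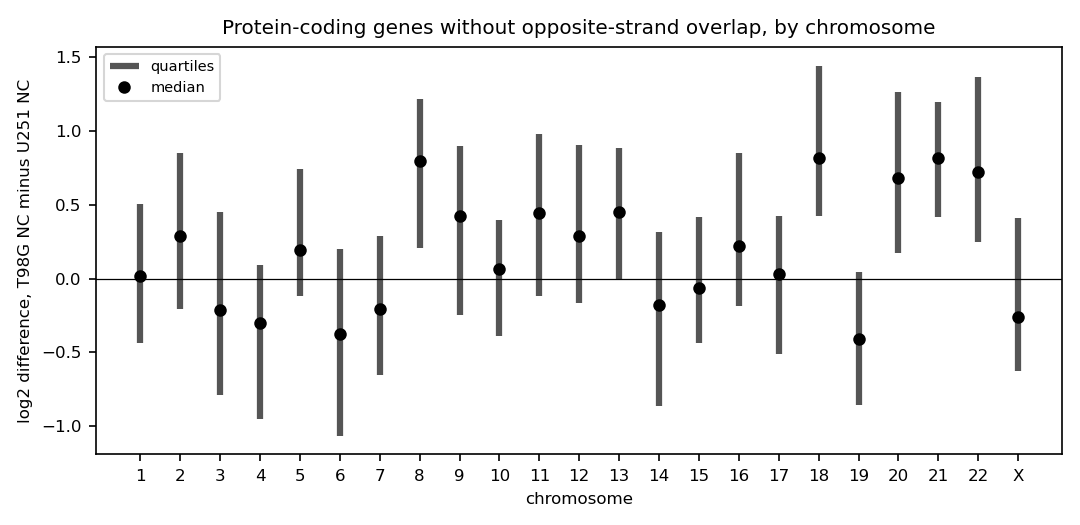
Median (points) and quartiles (bars) of the log2 difference T98G NC minus U251 NC over tested protein-coding genes without opposite-strand overlap, by chromosome. Chromosomes 8, 18, 20, 21 and 22 lie highest, with medians of 0.68 to 0.82, and chromosome 19 lowest, at -0.41.

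Windows of 15 consecutive tested genes located the shifts more closely, as a description of windows picked for their medians. The highest window ran over chromosome 12 from ENO2 to EPS8 (6913745 to 15882329 on GRCh38), with a median of 1.48 and 10 genes higher in T98G and none in U251, C1S and C1R among them. Windows on chromosomes 22 (43166622 to 49964080, median 1.48), 20 (4120980 to 18561415, median 1.44) and 18 (35332212 to 79756623, median 1.41) followed. The chromosome 20 window includes PCNA, and the window on 22 includes CELSR1, a cadherin of planar polarity with 110 counts in T98G and 3 in U251. The lowest windows lay on chromosomes 9 (3218297 to 33025168, median -1.16), 6 (83512538 to 108684774, median -1.08) and 3 (171061339 to 184194012, median -0.96). SOX2 lies in the window on chromosome 3 and POU3F2 in that on chromosome 6. ACO1, the cytosolic aconitase in the chromosome 9 window, stood at 532, 569.7 and 547 CPM in U251 against 41.8, 57.7 and 50.8 CPM in T98G. DNA copy number was not measured in these libraries.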

How the data were processed

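Whole-number read counts per gene were deposited by the authors in one table of 63241 gene identifiers and 12 libraries, 20573 of them without a symbol. Per the submitters' processing notes, FastQC, fastp, HISAT2, Subread and featureCounts were used with the GRCh38 genome, with no version or role. Annotation release and strand setting: not given in the sources used here. Per the labels' protocols, the libraries were strand-specific.

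Positions came from GENCODE release 29, where 92.1% of identifiers, carrying 96.3% of NC counts, were found. The 6 NC libraries were fitted with edgeR 4.0.16 (R 4.3.3), with TMM scaling, a minimum count of 10 in its expression filter and a robust quasi-likelihood test with 4 residual degrees of freedom. Benjamini-Hochberg adjustment covered all 7653 tested genes, and an adjusted p under 0.05 made a call. CPM used the TMM-scaled library size. The PEPD-OE libraries were fitted separately, and the difference of the line differences over all 12. Intervals of 95% and bounds from 3 counts cover counting error only. The fit was tested on simulated data.

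The alternatives tried were DESeq2 1.42.0, scaling by RLE or upper quartile, other filters, all 12 libraries, a replicate block, a test against a log2 change of 1, genes without opposite-strand overlap, and leaving out each library. Leaving out T98G NC replicate 2 and T98G PEPD-OE replicate 2 together was added after seeing the data. Named genes were those with the largest changes per direction among separated, called genes above 20 CPM, up to 5 per direction of each list, and genes of the most extreme windows. Any other gene given with values was picked with those values in view. The members and lists were chosen with earlier results of these data known. Genes of the Y chromosome and of X inactivation are not named. Some items are not reported here.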

Additional observations from a re-analysis of the deposited data

Results flagged for a closer look

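A set of 56 genes was picked for large differences between the lines in each direction. Protein-coding genes without opposite-strand overlap and genes of any type with it were ranked separately. Only called, separated genes with at least 20 CPM in the higher line were ranked, so these are not the 56 largest differences of all. All 56 could be tested for whether the difference itself differed between NC and PEPD-OE cells, and 6 passed (edgeR's quasi-likelihood test over 12 libraries). The values below are the log2 line difference in NC minus that in PEPD-OE cells. HLA-C gave 1.27 (adjusted p = 0.0104). MIF-AS1, opposite MIF, gave -1.52 (0.0391). KYNU, an enzyme of tryptophan breakdown, gave 3.90 (0.0333). It is opposite AC013444.2 and had 15, 36 and 37 counts in T98G NC, 0 in each U251 NC library, 30, 21 and 25 in T98G PEPD-OE and 1, 2 and 2 in U251 PEPD-OE. CFI, a protease that inactivates complement, gave -5.45 (0.00594). It had 0 counts in each T98G NC library, 26, 20 and 25 in U251 NC, 2, 3 and 0 in T98G PEPD-OE and 3, 8 and 15 in U251 PEPD-OE. With one NC line at 0, the values of KYNU and CFI depend on the prior count of the fit and do not measure a size. CKB, the brain creatine kinase, gave -2.38 (0.0308) and CAPS (opposite AC104532.2) -2.51 (0.0385), both resting on low T98G NC counts, 3, 0 and 0 for CKB and 0, 0 and 2 for CAPS. Over all named genes, 151 of 398 tested passed, beside 27.7% of all genes. The named genes were chosen by the NC difference, which is part of the quantity tested, so this share is a description only.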

How the results depend on the processing

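The number of genes called between the NC groups was 4028 and stayed within 1.5 times of that with RLE scaling (4024), upper-quartile scaling (4040), DESeq2 (3000), no filter on low counts (4751), at least 1 CPM in 3 libraries (5254) and all 12 libraries in the fit (4273). Leaving out each library gave 3745 to 4065. Tested against a log2 change of 1, 1050 genes were called, 511 higher in T98G and 539 in U251. Among genes without opposite-strand overlap, fitted alone, 1695 were called, 850 and 845, against 984 and 739 of such genes in the whole fit; the cause was not tested. No named gene reversed, and 39 lost the call with DESeq2, 21 without the filter and 150 against a log2 change of 1. In the PEPD-OE libraries 3316 genes were called with DESeq2, and 3934 to 4434 on leaving out each library. Without both replicate-2 libraries of T98G, added after seeing the data, 2030 genes differed in the line difference, against 2428.

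The labels do not say whether replicate numbers pair the samples. The correlations of deviations between same-numbered libraries of the lines were 0.00065, 0.017 and 0.013. Between differently numbered libraries they were -0.022 to 0.0073. These values carry no test and cannot exclude a pairing. Both replicate-2 libraries of T98G held blood cell genes, as given above. With the replicate number as a block, 4013 genes were called, 2011 higher in T98G and 2002 in U251. The block gave 4266 calls in the PEPD-OE libraries and 2429 for the difference of the line difference.

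At 3 counts per 3.60 to 6.26 CPM, low genes such as MGMT and TERT were not tested, and their differences were not detectable.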
